A study of Mus musculus with 3 samples.

Results

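The cathepsins *Ctsk*, *Ctsa*, *Ctsb*, *Ctsc*, *Ctsd*, *Ctsf*, *Ctsh*, *Ctsl*, *Ctss* and *Ctsz* were followed in the murine colon adenocarcinoma line Colon26, its high-metastatic subline LuM1 and its low-metastatic subline NM11. All 3 lines are of the BALB/c strain and labelled female, none was given a treatment, and all were kept in RPMI1640 with fetal bovine serum, penicillin, streptomycin and amphotericin B and grown for 3 days before 0.1 µg of total RNA was labelled with Cy3. Each line was measured on 1 array from 1 RNA sample, so n = 1 for every value, and the differences between lines have no replicate check and were not tested. Members were the genes of these 10 symbols, reached through the accession of each probe, of 22911 named genes on the array, and 12 distinct probes belonged to them. The genes were chosen on the scaled signals of these same arrays, among them the high *Ctsk* signal of LuM1 cells, so the differences between the lines are given as a description. In bulk RNA, fewer cells of a type and less RNA per cell cannot be told apart.

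Cathepsins are proteases that mostly work in the acid lumen of lysosomes, where they degrade proteins, and some are also secreted and cut matrix outside the cell. Cathepsins B, C, F, H, K, L, S and Z are cysteine proteases of the papain family, cathepsin D is an aspartic protease, and cathepsin A is a serine carboxypeptidase that also protects other lysosomal enzymes. They are made as inactive precursors, reach the lysosome mainly through mannose 6-phosphate receptors, and are held in check by cystatins, stefins and some serpins. In tumors, cathepsins of cancer cells and of stromal cells are known for matrix degradation.

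Promoters are given for the 3 members whose signal in LuM1 cells was 2-fold or more that of the parental line, and for *Ctss*, which lies beside *Ctsk* and was not well above background in any line. Each is a RefSeq window of 300 bases on GRCm38.p6, from 250 bases before a transcript start to 50 after it, written 5′ to 3′ on the strand of the gene. Capitals mark CACGTG, an E-box bound by TFEB, TFE3 and MITF among other factors, or, where the flanks match, the longer TCACGTGA that contains it. The *Ctsk* window lies at chr3:95498960-95499259 on the plus strand, that of *Ctss* at chr3:95526536-95526835 on the plus strand, that of *Ctsd* at chr7:142387778-142388077 on the minus strand, and the *Ctsa* window at chr2:164833523-164833822 on the plus strand.
Ctsk: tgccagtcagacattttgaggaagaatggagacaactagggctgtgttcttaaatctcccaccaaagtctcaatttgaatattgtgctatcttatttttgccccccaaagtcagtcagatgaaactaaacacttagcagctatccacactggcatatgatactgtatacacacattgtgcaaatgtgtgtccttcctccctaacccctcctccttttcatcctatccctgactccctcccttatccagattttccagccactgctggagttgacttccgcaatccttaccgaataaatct
Ctss: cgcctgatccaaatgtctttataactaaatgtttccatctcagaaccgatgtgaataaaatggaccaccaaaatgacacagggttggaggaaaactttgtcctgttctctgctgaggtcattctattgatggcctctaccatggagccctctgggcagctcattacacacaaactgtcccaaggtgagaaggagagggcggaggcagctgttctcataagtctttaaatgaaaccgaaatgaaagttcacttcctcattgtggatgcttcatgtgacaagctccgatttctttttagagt
Ctsd: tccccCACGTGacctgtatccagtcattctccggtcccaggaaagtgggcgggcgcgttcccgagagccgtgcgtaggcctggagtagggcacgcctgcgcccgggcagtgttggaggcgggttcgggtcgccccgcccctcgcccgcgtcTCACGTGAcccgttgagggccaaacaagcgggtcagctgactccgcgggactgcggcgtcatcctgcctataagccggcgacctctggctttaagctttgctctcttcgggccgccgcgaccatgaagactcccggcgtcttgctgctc
Ctsa: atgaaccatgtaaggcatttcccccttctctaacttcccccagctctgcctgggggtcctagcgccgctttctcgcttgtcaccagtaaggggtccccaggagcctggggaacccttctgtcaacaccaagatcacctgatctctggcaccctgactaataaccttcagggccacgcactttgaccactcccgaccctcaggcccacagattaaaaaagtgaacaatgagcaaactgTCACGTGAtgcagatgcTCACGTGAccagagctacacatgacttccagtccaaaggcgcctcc

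The RefSeq promoter table held 9 windows of 8 members, and *Ctsb* and *Ctsh* were not matched. The *Ctsk* window held no CACGTG, and neither did those of *Ctss*, *Ctsc* and *Ctsz*. In the *Ctsa* window printed, both CACGTG matches, at bases 239 and 256, had the longer flanks (counted from the first base of the window), while the other *Ctsa* window held neither motif. The *Ctsd* window held CACGTG at base 6 and, with the longer flanks, at base 153. Single CACGTG matches stood at base 172 of the *Ctsf* window and at base 15 of the *Ctsl* window. So 4 of the 9 windows held CACGTG and 2 held TCACGTGA, whereas 7.15% and 0.974% of all 32851 promoter windows held them on either strand. The share of G and C was 43.7% in the *Ctsk* window with 2 CpG, and 67.3% in the *Ctsd* window with 33 CpG, beside a median of 52.7% and 7 CpG over all windows. These matches are letters in a window and do not show that a factor binds there.

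Signals are the background-corrected brightness of a spot, scaled so that the 75th percentile of each array became 585.1. Those of detected members are given with the scanner software's own error, about 10% of a bright signal and a larger share of a dim one. A signal that the scanner software did not call well above background has no ratio, or only a bound. By this call, 7 of the 10 members were detected on at least 1 array, and *Ctsc*, *Ctsh* and *Ctss* were not well above background on any. On the arrays of Colon26, LuM1 and NM11 the lowest signals with this call were 26.4, 20.1 and 19.6. No probe was saturated. Levels are compared between lines for 1 probe at a time, since probes differ in brightness.

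*Ctsk* stood apart from the other cathepsins in LuM1 cells. *Ctsk* encodes cathepsin K, the collagen-degrading protease of osteoclasts, and its only probe, A_55_P1961335 (NM_007802), gave a signal of 42.2 ± 7.39 in Colon26 cells, 12603 ± 1260.3 in LuM1 cells and 96.7 ± 10.6 in NM11 cells (scanner error). LuM1 cells were far above both slowly metastatic lines, which lay near the lower end of what the arrays could measure. The LuM1 signal was 299-fold that of Colon26 cells (log2 ratio 8.22 ± 0.29) and 130-fold that of NM11 cells (7.03 ± 0.21). Between the other two lines, *Ctsk* was 2.29-fold higher in NM11 cells (1.20 ± 0.30). Among genes measured on both arrays, *Ctsk* ranked 6 of 12397 for LuM1 over Colon26 and 3 of 12851 for LuM1 over NM11, and by the smaller of both ratios it ranked 1 of 12249 among genes that every array called well above background. That rank leaves out genes not detected in a line, such as *Ctla2a* and *Itgb3*. The smaller of their log2 bounds or ratios over the other lines was 8.66 and 7.97, above the 7.03 of *Ctsk*.

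The size of the *Ctsk* ratio depended on the background correction, which bears on its low signals, and on the scaling between arrays. With a normexp background correction the ratio of LuM1 over Colon26 was 103-fold and that of LuM1 over NM11 was 70.6-fold, and across the 8 other scalings and corrections they reached at most 407-fold and 196-fold. Under each of these, *Ctsk* in LuM1 cells exceeded both slowly metastatic lines by more than 2-fold. The small ratio of NM11 over Colon26 ranged from 1.46-fold to 2.40-fold.

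**Figure D1:**
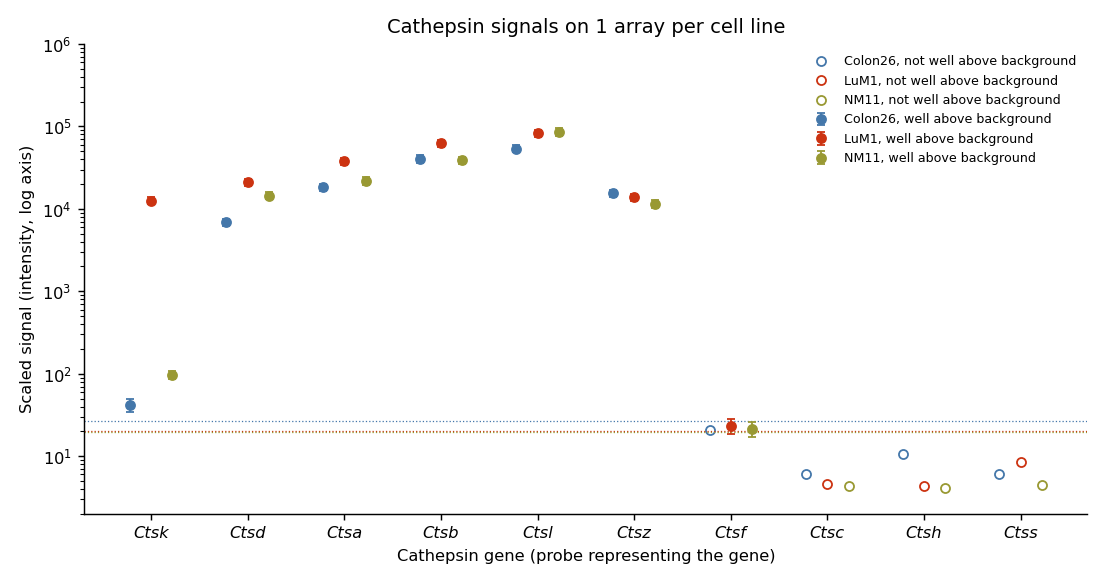
Scaled signal (intensity, log axis) of the probe representing each of the 10 cathepsins on the Colon26, LuM1 and NM11 arrays, with bars for the scanner error, open circles for signals not well above background, and dotted lines for the lowest signal well above background on each array. *Ctsk* was at 12603 in LuM1 cells and below 100 in the other two lines, whereas *Ctsd*, *Ctsa*, *Ctsb*, *Ctsl* and *Ctsz* were well above background on all 3 arrays.

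*Ctsd* and *Ctsa* were higher in LuM1 cells than in the parental line, with ratios far smaller than that of *Ctsk*. *Ctsd*, the aspartic protease of the lysosome (A_51_P384629, NM_009983), had signals of 6863 ± 686 in Colon26 cells, 21062 ± 2106 in LuM1 cells and 14511 ± 1451 in NM11 cells. Both sublines were above Colon26 cells, with LuM1 cells highest. The ratio was 3.07-fold for LuM1 over Colon26 (log2 1.62 ± 0.20), 2.11-fold for NM11 over Colon26 (1.08 ± 0.20) and 1.45-fold for LuM1 over NM11 (0.54 ± 0.20).

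For *Ctsa*, the protective carboxypeptidase (A_55_P1955841, NM_001038492), signals were 18165 ± 1816 in Colon26 cells, 37567 ± 3757 in LuM1 cells and 21863 ± 2186 in NM11 cells. LuM1 cells were again highest, and the other two lines were close to each other. LuM1 cells were 2.07-fold above Colon26 cells (log2 1.05 ± 0.20) and 1.72-fold above NM11 cells (0.78 ± 0.20). The 1.20-fold difference between NM11 and Colon26 cells (0.27 ± 0.20) changed direction when the arrays were scaled to *Hprt* or to the E1A spike-ins.

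The cysteine cathepsins *Ctsb*, *Ctsl* and *Ctsz* differed by less than 2-fold between any pair of lines at this scaling. *Ctsb*, an endopeptidase that also trims dipeptides from the end of proteins (A_55_P2910387, NM_007798), gave 40442 ± 4044 in Colon26 cells, 63057 ± 6306 in LuM1 cells and 38616.5 ± 3862 in NM11 cells. LuM1 cells were highest and the other two lines differed by less than the scanner error. The ratio was 1.56-fold over Colon26 (log2 0.64 ± 0.20) and 1.63-fold over NM11 (0.71 ± 0.20).

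*Ctsl*, a broadly expressed endopeptidase (A_51_P253547, NM_009984), was printed in 10 spots on each array. Its mean signal was 53797 ± 5379.7 in Colon26 cells, 83102 ± 8310.2 in LuM1 cells and 85863 ± 8586 in NM11 cells. Here both sublines were above the parental line and did not differ from each other beyond the scanner error. The ratio was 1.54-fold for LuM1 over Colon26 (log2 0.63 ± 0.20), 1.60-fold for NM11 over Colon26 (0.67 ± 0.20) and 0.968-fold for LuM1 over NM11 (-0.05 ± 0.20), and the last of these changed direction under 5 of the other settings. The spots of this probe varied by 3.16% for Colon26, 2.58% for LuM1 and 2.77% for NM11 (coefficient of variation over 10 spots), which is smaller than the scanner error. On the Colon26 array 4 of the 10 spots were marked as outliers and left out, and with them the mean was 54126.

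*Ctsz*, a carboxypeptidase that removes single residues (A_51_P256202, NM_022325), had signals of 15398 ± 1539.8 in Colon26 cells, 13915 ± 1392 in LuM1 cells and 11491 ± 1149 in NM11 cells. Among members with a ratio of LuM1 over Colon26, *Ctsz* alone was not higher in LuM1 cells, at 0.904-fold (log2 -0.15 ± 0.20). This difference was within the scanner error and turned positive with quantile normalization and with the authors' processed values. NM11 cells were lowest, at 0.746-fold of Colon26 cells (-0.42 ± 0.20), and LuM1 cells were 1.21-fold above NM11 cells (0.28 ± 0.20).

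The other members gave little or no signal. *Ctsf*, a papain-family protease of the lysosome (A_52_P660945, NM_019861), was at 20.6 ± 5.73 in Colon26 cells, 23.4 ± 4.70 in LuM1 cells and 21.5 ± 4.48 in NM11 cells, and the first of these was not well above background. These signals lie within one another's error, and the log2 ratio of LuM1 over NM11 was 0.12 ± 0.42. *Ctsc*, which encodes the dipeptidyl peptidase that activates granule serine proteases (A_52_P195839, NM_009982), was at 6.03 in Colon26 cells, 4.55 in LuM1 cells and 4.29 in NM11 cells. *Ctss*, the protease that trims the invariant chain in antigen-presenting cells (A_51_P423981, NM_021281), was at 6.09 in Colon26 cells, 8.54 in LuM1 cells and 4.47 in NM11 cells. None of these 6 signals was well above background.

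*Ctsh*, an aminopeptidase, had 3 probes (NM_007801). The brightest, A_66_P124326, was at 10.5 in Colon26 cells, 4.37 in LuM1 cells and 4.14 in NM11 cells, and A_51_P277792 and A_52_P51078 lay between 4.32 and 5.99 in all lines. No *Ctsh* signal was well above background, so no direction is given.

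Counted by the 2-fold rule, 3 of the 7 detected members (*Ctsk*, *Ctsd* and *Ctsa*) were higher in LuM1 cells than in the parental line, where 12.9% of all genes with a detected signal were, and none was lower, where 11.7% of all genes were. Against NM11 cells only *Ctsk* of the 7 was higher in LuM1 cells, beside 11.1% of all genes, and none was lower, beside 8.5%. In NM11 cells *Ctsk* and *Ctsd* passed 2-fold over Colon26 cells, beside 8.17%, and none was lower, beside 7.74%. Against both lines at once, *Ctsk* alone was higher in LuM1 cells, beside 7.33% of all genes, and no member was lower, beside 4.03%. The 3 comparisons share arrays, so they are given side by side and are not independent. *Ctsa* lay just inside the 2-fold line at 2.07-fold, and *Ctsb*, at 1.56-fold, was the nearest member outside it. Under the authors' processed values *Ctsb* and *Ctsl* also passed it, at 2.12-fold and 2.11-fold. Over the members with a ratio, the median log2 ratio was 0.84 for LuM1 over Colon26 (6 genes) and 0.54 for LuM1 over NM11 (7 genes), beside -0.13 and -0.11 over all measured genes.

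**Figure D2:**
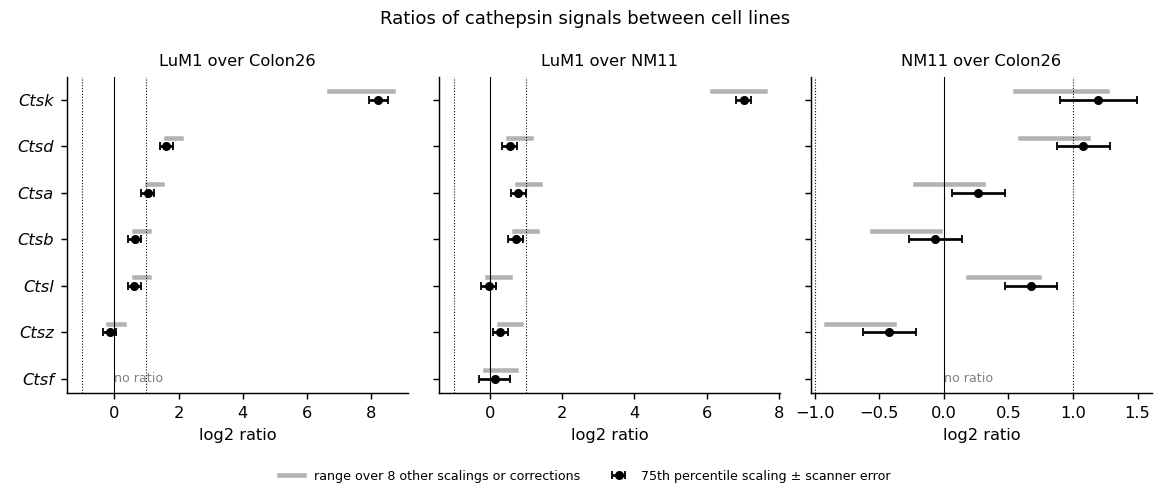
Log2 ratios of the 7 detected cathepsins between the lines with the scanner error (black) and, as grey bars, the range over the 8 other scalings and corrections; dotted lines mark 2-fold and each panel has its own axis. *Ctsk* lay at 8.22 and 7.03 for LuM1 over Colon26 and over NM11, and the next highest member for LuM1 over Colon26 was *Ctsd* at 1.62.

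The array also named 13 further cathepsin genes, and 10 of these were not well above background in any line, beside 8083 of all 22911 named genes. *Ctso*, a papain-family member, was at 36.4 in Colon26 cells, 128 in LuM1 cells and 49.8 in NM11 cells. LuM1 cells were 3.52-fold above Colon26 cells (log2 1.82) and 2.57-fold above NM11 cells (1.36). *Ctsq*, a member of the placental cathepsin cluster, was detected only in LuM1 cells, at 84.9, which is at least 3.21-fold above Colon26 cells and at least 4.34-fold above NM11 cells. *Ctsw* lay between 32.6 and 42.9 in the 3 lines. So 2 of the 3 detected, *Ctso* and *Ctsq*, were 2-fold or more above both lines, beside 7.33% of all genes. With the normexp correction neither *Ctso* nor *Ctsq* reached 2-fold over both lines.

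A list of inhibitors of cysteine cathepsins and genes of related families included genes with *Ctsk*-like differences. Whether each listed gene inhibits these proteases was not tested. Of 25 genes listed, 24 had a named probe and 13 were detected on at least 1 array. In LuM1 cells 4 of them exceeded both other lines by 2-fold or more, beside 7.33% of all genes. Lower than both by as much was 1, beside 4.03%. *Ctla2a*, which encodes a protein similar to the propeptide of cathepsin L that inhibits such proteases, was not well above background in Colon26 cells and was at 11823 in LuM1 cells and 29.3 in NM11 cells. LuM1 cells were at least 448-fold above Colon26 cells and 404-fold above NM11 cells (log2 8.66), the largest ratio of LuM1 over NM11 among the 12851 genes measured on both arrays. Its relative *Ctla2b* was below that call in Colon26 cells, at 5056 in LuM1 cells and at 69.5 in NM11 cells, so that LuM1 cells were at least 191-fold and 72.8-fold higher. Whether the probes of these similar genes tell them apart was not tested.

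*Serpinb6b*, an intracellular serpin, was likewise not well above background in Colon26 cells, at 1369.8 in LuM1 cells and at 66.5 in NM11 cells. LuM1 cells were at least 51.9-fold above Colon26 cells and 20.6-fold above NM11 cells. *Ahsg*, a fetuin of the cystatin superfamily, was detected only in LuM1 cells, at 141, at least 5.35-fold above Colon26 cells and at least 7.21-fold above NM11 cells. Its relative *Fetub* ran the other way, with 625 in Colon26 cells, 252 in LuM1 cells and 2669 in NM11 cells. *Ahsg* missed the 2-fold line with the normexp correction, and *Fetub* with the authors' processed values.

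Cystatins and stefins of the list had ratios in both directions. *Cst3*, the secreted cystatin C, was at 34063 in Colon26 cells, 28776 in LuM1 cells and 30638 in NM11 cells, with log2 ratios of -0.24 for LuM1 over Colon26 and -0.09 for LuM1 over NM11. *Cstb*, the cytosolic stefin B, had log2 ratios of 0.07 for LuM1 over Colon26 and -0.79 for LuM1 over NM11. *Cst6*, the secreted cystatin E/M, was at 618 in Colon26 cells, 231 in LuM1 cells and 25.2 in NM11 cells, with log2 ratios of -1.42 and 3.19. The median log2 ratio of the list, with bounds counted at their bound, was 0.07 for LuM1 over Colon26 (11 genes) and 0.20 for LuM1 over NM11 (12 genes), and without bounds -0.24 (5 genes) and -0.03 (9 genes), so the list as a whole has no settled direction.

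Delivery and activation genes were partly higher in LuM1 cells. Of 14 genes listed, 13 were measured, 3 were 2-fold or more above Colon26 cells in LuM1 cells, beside 12.9% of all genes, and 3 were so above NM11 cells, beside 11.1%, and none was lower by as much. Under the other settings the number higher ranged from 2 to 8 over Colon26, the most with the authors' processed values, and from 2 to 6 over NM11, and 1 gene was lower over NM11 with the 75th percentile over distinct probes. *Igf2r*, the large mannose 6-phosphate receptor, was at 934 in Colon26 cells, 2696 in LuM1 cells and 1070.4 in NM11 cells, and *Sort1*, the sorting receptor sortilin, was at 143, 319 and 155 in the same order. In LuM1 cells both exceeded the other two lines, *Igf2r* by 2.89-fold and 2.52-fold and *Sort1* by 2.23-fold and 2.06-fold. The 3 *Sort1* probes ranged from 1.16 to 4.04 in the log2 ratio over Colon26, and *Sort1* missed the 2-fold line under 3 of the other 8 settings. The median log2 ratio of the list was 0.59 over Colon26 and 0.15 over NM11.

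Lysosomal hydrolases and membrane proteins other than cathepsins were measured for 42 of 44 genes listed. By the 2-fold rule, 10 were higher in LuM1 cells and none lower against Colon26 cells, beside 12.9% and 11.7% of all genes. Against NM11 cells 8 were higher and none lower, beside 11.1% and 8.5%. The median log2 ratios were 0.44 and 0.40, beside -0.13 and -0.11 over all measured genes. The 6 genes higher than in both lines, beside 7.33% of all genes, were *Arsa*, *Lipa*, *Manba*, *Fuca1*, *Ppt1* and *Gm2a*. *Manba*, the lysosomal beta-mannosidase, was at 59.6 in Colon26 cells, 1047 in LuM1 cells and 63.1 in NM11 cells, so LuM1 cells were 17.6-fold and 16.6-fold higher. *Lipa*, the lysosomal acid lipase, was at 355, 2762 and 923 in the same order, or 7.78-fold and 2.99-fold higher in LuM1 cells. *Arsa* and *Fuca1*, enzymes that remove sulfate and fucose, *Ppt1*, a thioesterase, and *Gm2a*, a lipid-binding activator, were 2.11-fold to 3.00-fold higher. *Gm2a* missed the 2-fold line with quantile normalization and with the normexp correction. Under the other settings the number higher in LuM1 cells ranged from 8 to 18 over Colon26 and from 7 to 21 over NM11.

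Factors that drive lysosomal genes and the proton pump that acidifies lysosomes were also followed. *Tfec*, of the MITF family, was detected only in LuM1 cells, at 70.4, at least 2.67-fold above Colon26 cells and at least 3.60-fold above NM11 cells, and missed the 2-fold line with the normexp correction. *Mitf*, *Tfeb* and *Tfe3* had log2 ratios of 0.96, 0.52 and 0.83 for LuM1 over Colon26, and of 0.34, -0.09 and -0.16 for LuM1 over NM11. *Zkscan3* was at 0.32 and 0.15, and *Zkscan17* ran the other way, at -0.95 and -0.76. Among 25 V-ATPase subunits 21 were detected, and *Atp6v0d2* and *Atp6v0e2* in LuM1 cells exceeded both other lines by more than 2-fold, beside 7.33% of all genes. Over NM11 cells 2 subunits were lower by 2-fold or more, beside 8.5%, and over Colon26 cells none was, beside 11.7%. *Atp6v0d2*, the d2 subunit abundant in osteoclasts, was detected only in LuM1 cells, at 195, at least 7.40-fold above Colon26 cells and at least 9.98-fold above NM11 cells. *Atp6v0e2* had log2 ratios of 1.92 over Colon26 and 2.81 over NM11. The median log2 ratio of the subunits was 0.14 over Colon26 and -0.09 over NM11, and the second changed direction under scalings such as *Hprt*, where it was 0.50.

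**Figure D3:**
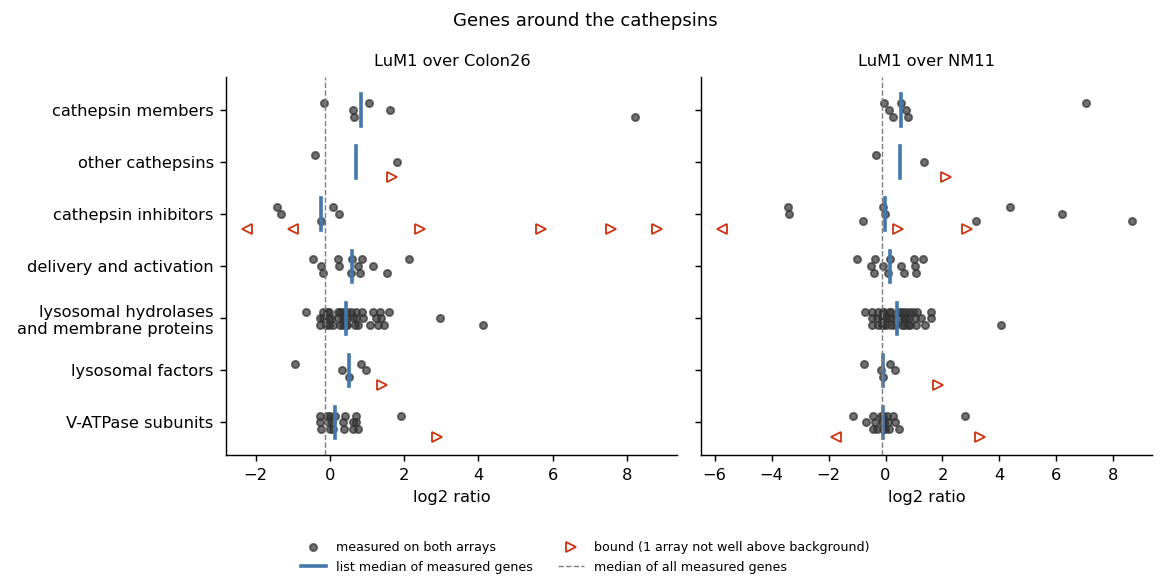
Log2 ratios of LuM1 over Colon26 and of LuM1 over NM11 for the cathepsins and the gene lists around them, with a point for each gene measured on both arrays, triangles for bounds, blue bars for list medians of measured genes and a dashed line for the median of all measured genes. *Ctla2a* (8.66 over NM11) and *Ctsk* (7.03) are the points farthest to the right in the panel over NM11, and the 42 hydrolases and membrane proteins had medians of 0.44 and 0.40.

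The substrates and partners of *Ctss* and *Ctsc* were mostly not detected either. Of the 10 genes of the invariant chain and MHC class II, 6 were not well above background in any line, beside 8083 of all 22911 named genes. None of the 4 detected was 2-fold or more above or below both other lines in LuM1 cells, beside 7.33% and 4.03% of all genes. With so few genes, that count is close to those shares and says little about them. Of the 15 granule serine proteases listed, 14 had a named probe and 8 of these were not well above background in any line. *Gzme*, a granzyme, was detected only in LuM1 cells, at 140, at least 5.30-fold above Colon26 cells and at least 7.15-fold above NM11 cells. It was the only 1 of the 6 detected granule serine proteases above both lines by 2-fold or more, beside 7.33% of all genes.

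Since *Ctsk* is best known from osteoclasts and is also made by fibroblasts and macrophages, markers of these cells are given beside it. Of 10 osteoclast markers, Colon26 cells had 4 detected, LuM1 cells 8 and NM11 cells 5. The summed signal of the detected ones was 692 in Colon26 cells, 10044 in LuM1 cells and 663 in NM11 cells. Such a sum follows the brightest probes of a list, here *Itgb3* and *Mmp9* in LuM1 cells. The median log2 ratio of the measured osteoclast markers was 0.29 for LuM1 over Colon26 (4 genes) and 0.54 for LuM1 over NM11 (5 genes). With bounds counted at their bound, the medians were 1.36 and 1.84 (8 genes each). *Itgb3*, the integrin beta 3 chain, was at 6625 in LuM1 cells and not well above background in the other two lines, at least 251-fold and at least 339-fold higher. The bounds of its second probe were smaller, at log2 3.97 over Colon26 and 4.40 over NM11. *Mmp9*, a gelatinase, was at 2311 in LuM1 cells, not well above background in Colon26 cells and at 24.7 in NM11 cells. *Acp5*, the tartrate-resistant acid phosphatase, was detected only in LuM1 cells, at 107. *Calcr* and *Dcstamp*, which mark mature osteoclasts and their fusion, were not well above background in any line. *Nfatc1*, *Ocstamp* and *Tnfrsf11a* were detected in all lines, and *Oscar* was at 81.8, 85.8 and 90.4 in Colon26, LuM1 and NM11 cells. By the 2-fold rule, 4 osteoclast markers were higher in LuM1 cells than in Colon26 cells, beside 12.9% of all genes. Over NM11 cells 5 were higher, beside 11.1%, and none was lower in either comparison, beside 11.7% and 8.5%.

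Of 10 myeloid markers 6 were detected in LuM1 cells and 5 in each of the other lines. Their summed signal, which again follows the brightest probes, was 7066 in Colon26 cells, 17116 in LuM1 cells and 6249.6 in NM11 cells. The median log2 ratio of the measured myeloid markers was 1.16 for LuM1 over Colon26 and 0.92 for LuM1 over NM11 (5 genes each). *Cd68*, a lysosomal glycoprotein, was at 172 in Colon26 cells, 5251 in LuM1 cells and 299 in NM11 cells. *Cd14* was 3.62-fold and 4.23-fold higher in LuM1 cells, and *Lyz2* was detected only there, at 112, though it missed the 2-fold line with the normexp correction. The leukocyte and macrophage genes *Ptprc*, *Adgre1*, *Tyrobp* and *Spi1* were not well above background on any array, LuM1 included. In contrast, *Csf1r*, *Itgam* and *Fcer1g* were detected on every array. By the 2-fold rule, 4 myeloid markers were higher in LuM1 cells than in Colon26 cells, beside 12.9% of all genes. Over NM11 cells 3 were higher, beside 11.1%, and none was lower in either comparison, beside 11.7% and 8.5%.

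Of 8 fibroblast markers, 5 were detected in the parental line and 7 in each subline. The summed signal of the detected ones was 66319 in Colon26 cells, 55460.2 in LuM1 cells and 121223 in NM11 cells. *Col1a2* alone, given below, made up most of it in Colon26 and NM11 cells and very little of it in LuM1 cells. So the sum does not describe the list as a whole. The median log2 ratio of the measured fibroblast markers was -0.04 for LuM1 over Colon26 (5 genes) and 0.03 for LuM1 over NM11 (7 genes). With bounds counted at their bound, the median over Colon26 was 1.99 (7 genes). In LuM1 cells 4 markers were 2-fold or more above Colon26 cells and 2 below, beside 12.9% and 11.7% of all genes. Over NM11 cells 2 were above and 3 below, beside 11.1% and 8.5%. *Dcn* and *Pdgfra* in LuM1 cells exceeded both other lines by more than 2-fold, beside 7.33% of all genes. The log2 ratio of *Dcn* was at least 10.0 over Colon26 and 1.52 over NM11, and that of *Pdgfra* was 4.18 and 1.62. *Col1a1* and *Col1a2*, the chains of type I collagen, were lower in LuM1 cells than in both by more than 2-fold, beside 4.03% of all genes. *Col1a1* missed the 2-fold line under 3 of the other 8 settings (*Hprt*, quantile normalization and the authors' processed values). *Col1a2* was at 59896 in Colon26 cells, 49.6 in LuM1 cells and 85275 in NM11 cells. Of 10 colon epithelium markers 4 were detected on at least 1 array. The other 6, among them *Cdh1*, *Krt18*, *Krt19* and *Vil1*, were not well above background in any line, beside 8083 of all 22911 named genes. *Krt8* was 3.72-fold above Colon26 and 2.90-fold above NM11 cells, and *Krt20* was at 651, 54.5 and 157 in Colon26, LuM1 and NM11 cells. So 1 marker was higher and 1 lower than in both lines, beside 7.33% and 4.03% of all genes. Both missed the 2-fold line with the normexp correction, and *Krt20* also with *Hprt*. The part of these cell types in the *Ctsk* signal was not tested.

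*Ctsk* and *Ctss* are neighbours on chromosome 3, and no measured gene around them had a ratio as large as that of *Ctsk*. Of the 10 genes with a named probe on either side of the pair, 18 were measured, with a median log2 ratio for LuM1 over Colon26 of -0.28 and a range from -1.49 to 3.45. *Ecm1*, which encodes a secreted matrix protein, was at 1985 in Colon26 cells, 21729 in LuM1 cells and 7246 in NM11 cells, and was the only neighbour past 2-fold upward in LuM1 cells over Colon26 cells. *Golph3l* and *Mindy1* followed with 0.88 and 0.63. *Tars2*, *Anxa9* and *Cers2* were at the other end with -1.49, -1.18 and -0.80. *Arnt*, directly before *Ctsk*, was at -0.15, and *Ctss*, directly after it among genes with a named probe, had no ratio. Over NM11, the median of the 18 was -0.04.

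**Figure D4:**
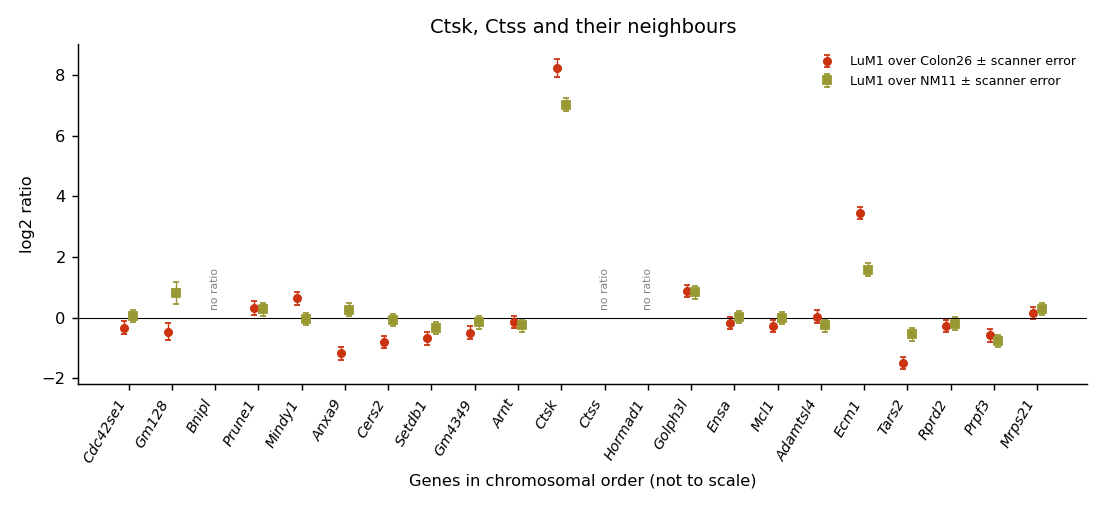
Log2 ratios with the scanner error of LuM1 over Colon26 (red circles) and LuM1 over NM11 (green squares) for *Ctsk*, *Ctss* and the 10 genes with a named probe on either side, in chromosomal order and not to scale. *Ctsk* lies at 8.22 and 7.03, *Ecm1* at 3.45 and 1.58, and *Ctss*, *Bnipl* and *Hormad1* have no ratio because they were not well above background.

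The genes whose pattern over the 3 lines was most like that of *Ctsk* were found by the distance between their pairs of log2 ratios (LuM1 over Colon26 and LuM1 over NM11) among 12248 other genes well above background on all arrays. They were *Mapt* at a distance of 1.15, *S100a8* at 1.23, *Gpsm3* at 1.78, *Urah* at 2.34 and *Myct1* at 2.63. *Mapt*, the microtubule-associated protein tau, was at 54.1 in Colon26 cells, 7925 in LuM1 cells and 86.6 in NM11 cells. Its 4 probes ranged from 3.12 to 7.66 in the log2 ratio over Colon26, bounds included. *S100a8*, a calcium-binding protein of myeloid cells, was at 38.4 in Colon26 cells, 18268 in LuM1 cells and 287 in NM11 cells. These 5 genes were picked for ratios near those of *Ctsk*, so their high signal in LuM1 cells beside the other lines follows from the selection. No other cathepsin had ratios of that size, so none could be among them.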

How the data were processed

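Gene expression was measured in Colon26, LuM1 and NM11 cells on 3 single-colour arrays, 1 for each line. The authors deposited the intensity of each spot from Agilent Feature Extraction 11.5.1.1, background-corrected and detrended but not scaled between arrays, with other values that are flags for outliers, saturation and spots above background. They also deposited a table of processed intensity values, in which each array was multiplied by a constant of its own (0.654, 0.829 and 0.706 for Colon26, LuM1 and NM11).

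Control and outlier spots were left out (137, 74 and 99 outlier spots on the Colon26, LuM1 and NM11 arrays), spots of a probe were averaged, and each array was scaled to the 75th percentile of its spots. Of 56605 probes, 32994 (58.3%) were named through RefSeq accessions. The brightest probe represented a gene. Between 49.9% and 53.8% of probes were well above background. Where 1 of 2 arrays was not, the ratio is a bound, taken against the higher of that array's lowest well-above-background signal and the probe's own signal. Counts use a threshold of 2-fold. No test was possible with 1 array per line, and precision is limited by their number. The calls were tried on simulated arrays with changes of 4-fold or more, placed only in genes far above the detection limit. Recovery of changes near 2-fold or in dim genes was not covered.

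The cathepsins and the gene lists were chosen with earlier results of these arrays known. The text names every cathepsin of the set, list genes that in LuM1 cells lay 2-fold or more above or below both other lines, the 3 highest and 3 lowest neighbours, and the 5 genes most like *Ctsk*. Other genes named are background genes of the lists, chosen after their values were seen. The planned comparison of protein sequences was not run, and the design of the array predates GRCm38.p6, so no probe coordinates are given. As alternatives, arrays were left unscaled, scaled to *Hprt* or to the median of measured probes, quantile normalized, corrected by normexp on median brightness (offset 50), or taken from the authors' processed values. Dim probes were also called by a looser rule or all kept, other probes were chosen per gene, and the threshold was set to 4-fold. Scaling to the E1A spike-in controls, keeping outlier spots, and the 75th percentile over distinct probes were added after seeing the data. Software was limma 3.58.1 in R 4.3.3 for normexp, and otherwise Python 3.11.15 (numpy 2.4.6, pandas 2.3.3, matplotlib 3.10.9).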

Additional observations from a re-analysis of the deposited data

How the results depend on the processing

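Under every setting run, *Ctsk* in LuM1 cells exceeded both other lines by 2-fold or more. The number of members past 2-fold upward in LuM1 over Colon26 cells was 3, and became 5 with quantile normalization and with the authors' processed values (adding *Ctsb* and *Ctsl*) and 1 at a 4-fold threshold. Over NM11 cells the number was 1, and became 4 when scaled to *Hprt* (*Ctsa*, *Ctsb*, *Ctsd* and *Ctsk*) and 3 with quantile normalization, the authors' processed values and E1A scaling (*Ctsa*, *Ctsb* and *Ctsk*). Over both lines it was 1, and became 3 with *Hprt*, quantile normalization and the authors' processed values, and 2 with E1A scaling. For NM11 over Colon26 it was 2, and became 0 with *Hprt*, E1A scaling and a 4-fold threshold, and 1 with the normexp correction. With the looser detection rule and without a filter on dim probes, 1 member (*Ctsh*) counted as lower in LuM1 and in NM11 than in Colon26 cells, from signals that were not well above background.

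Scaling to 1 constant shifts all genes alike. The median log2 ratio of all genes of LuM1 over Colon26 moved by 0.45 with the authors' processed values, by 0.11 without scaling and by 0.10 with *Hprt*, and that of LuM1 over NM11 moved by 0.59 with *Hprt*, 0.41 with the authors' processed values, 0.33 with E1A scaling and 0.18 without scaling. Relative to that shift, the ratios of the members do not change under these 1-constant scalings. The direction changed for *Ctsa* (NM11 over Colon26), *Ctsf* and *Ctsl* (LuM1 over NM11) and *Ctsz* (LuM1 over Colon26), all of which lay close to 0. Of 152 ratios recomputed for single members under the 8 other scalings and corrections, 102 moved by less than the scanner error and 50 by more. Signal over background limits *Ctsf*, *Ctsc*, *Ctsh* and *Ctss*, and the Colon26 signal of *Ctsk*. No paired analysis was possible because each line has 1 array.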
